A study of Mus musculus with 8 samples.

Results

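Genes for protein folding, disulfide formation, translocation and degradation in the endoplasmic reticulum (ER), with the ER stress sensors, were followed in mouse liver RNA. The set lists 34 genes, chosen by function with earlier results of these same livers known, and 33 of them were found by symbol among the 16650 genes of the table. The 34th, Ero1b, is not listed under that name. A row named Ero1lb, its older symbol, is given beside the others but is not counted. Because the genes were chosen from a genotype comparison already seen, the genotype differences are given as a description, and nothing is supported with them.

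The livers came from 4 mice labelled L2aKO, in which Alb-Cre (a recombinase under the promoter of albumin, a hepatocyte gene) removes floxed Mfsd2a, and from 4 2afl/fl mice, which carry the floxed alleles. Mfsd2a is a transporter of lysophosphatidylcholine. All 8 mice received the NASH diet, which is high in fat, and fructose water for 2 weeks. They were 8 weeks old when it began and 10 weeks old at sacrifice at zeitgeber time 4. The study's methods state that males were used unless otherwise noted. Livers were perfused before RNA was taken, and each mouse gave 1 library. In whole liver, fewer cells of a type and less RNA per cell cannot be told apart.

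Most secreted proteins of the blood are made by hepatocytes, and each of them enters the ER through the translocon and folds there. BiP and other chaperones hold the new chain, calnexin and calreticulin read its sugars, and disulfide isomerases set its bonds. Chains that fail to fold are drawn back to the cytosol and degraded by the proteasome, which is called ER-associated degradation (ERAD). When unfolded chains accumulate, IRE1 (gene Ern1) splices Xbp1 mRNA and ATF6 is cut to an active form, and both raise the transcription of genes of this set, the unfolded protein response. RNA per gene, as measured here, shows neither Xbp1 splicing nor ATF6 cleavage.

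Several facts of the libraries bear on the values. Depth was 28.3 to 37.2M reads in livers labelled L2aKO and 27.5 to 30.2M in 2afl/fl livers, and the 33 genes held 0.649 to 0.745% of the signal in livers labelled L2aKO and 0.699 to 0.746% in 2afl/fl livers. The RNA of the targeted gene, counted over the whole gene, was not lower in livers labelled L2aKO. Mfsd2a had 721 to 1974 normalised reads in livers labelled L2aKO, against 300 to 1569 in 2afl/fl livers, with a log2 fold change of 1.01 (SE 0.59). The groups overlapped, and limma gave an unadjusted p of 0.137, so no difference was shown in either direction. The table does not resolve exons, so it does not show whether the deleted part is transcribed. The third liver labelled L2aKO stood apart in several genes. There Slc7a11, a cystine transporter, had 98.9 normalised reads, against 0.00 to 3.27 in the other L2aKO-labelled livers, and Lgals3, a macrophage lectin, had 175, against 76.2 to 93.8. These were singled out after their values were seen, and results are given without that liver below.

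A regulatory sequence shared by part of the set can be printed from the reference. The ER stress response element (ERSE) is known in mammals as CCAAT, 9 bases of any kind, and CCACG (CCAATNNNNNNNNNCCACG), where NF-Y holds the CCAAT and ATF6 the CCACG. RefSeq promoters (GRCm38.p6, 250 bases before to 50 after the start) were given for 27 of the 33 genes. Both strands were searched. An exact ERSE stood in 9 of 27 (33.3%), against 37 of 27025 genes with a promoter in the table (0.137%). The 37 genes include these 9. The element is named for ER stress, to which genes of this set respond, so the excess is no independent result. Hsp90b1 held 2. These 10 sites, which lie between 26 and 212 bases before the start, are shown because they carry that shared feature. Each is printed 5′ to 3′ on the strand where it reads CCAAT to CCACG, with 4 bases on either side of the stated coordinates and capitals for the CCAAT and CCACG.
Hspa5 (chr2:34772025-34772043, same strand as the gene): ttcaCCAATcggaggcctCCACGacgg
Hsp90b1 (chr10:86705638-86705656, same strand as the gene): aagcCCAATcgcaaggagCCACGcttc
Hsp90b1 (chr10:86705533-86705551, opposite strand to the gene): ctcaCCAATcgtgcctcaCCACGcact
Dnajc3 (chr14:118937827-118937845, same strand as the gene): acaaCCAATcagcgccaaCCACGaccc
Creld2 (chr15:88819520-88819538, opposite strand to the gene): tggaCCAATtgaggctcgCCACGagaa
Calr (chr8:84847075-84847093, opposite strand to the gene): tgggCCAATgagggtcgaCCACGcgtt
Canx (chr11:50325800-50325818, same strand as the gene): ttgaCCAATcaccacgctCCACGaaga
Pdia6 (chr12:17266491-17266509, same strand as the gene): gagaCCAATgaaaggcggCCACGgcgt
Derl3 (chr10:75893242-75893260, opposite strand to the gene): ctagCCAATggggaagtcCCACGgtag
Syvn1 (chr19:6046532-6046550, same strand as the gene): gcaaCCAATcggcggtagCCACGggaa

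The middle 9 bases differed between the sites, while the 5 on either side were identical by the search. With 1 mismatch allowed in the outer bases, 15 of 27 promoters matched (55.6%), against 1.72% of all genes, and these then included Pdia3, Pdia4, Derl2, Herpud1, Sel1l and Sec61g. The shorter element ERSE-II (ATTGGNCCACG) stood in Dnajb11 and Herpud1, 2 of 27 (7.41%), against 12 of 27025 genes (0.0444%). Single CCACG words are common, with 23 of 27 members (85.2%) and 35.5% of genes. CCAAT stood in 22 of 27 (81.5%), against 41.1% of genes. A match describes letters and shows no binding.

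Promoters of Hspa5 and Sdf2l1 are printed whole, since Hspa5 encodes the central chaperone and Sdf2l1 is the gene that met the study's criterion for a difference. Capitals mark CCAAT and CCACG read on either strand, so that ATTGG and CGTGG are their reverse complements. Hspa5 held 4 CCAAT and 1 CCACG, of which 1 pair formed an ERSE. Sdf2l1 held 4 CCAAT and 3 CCACG, and no pair had the exact order and gap of an ERSE.
Hspa5 (chr2:34771840-34772139, plus strand): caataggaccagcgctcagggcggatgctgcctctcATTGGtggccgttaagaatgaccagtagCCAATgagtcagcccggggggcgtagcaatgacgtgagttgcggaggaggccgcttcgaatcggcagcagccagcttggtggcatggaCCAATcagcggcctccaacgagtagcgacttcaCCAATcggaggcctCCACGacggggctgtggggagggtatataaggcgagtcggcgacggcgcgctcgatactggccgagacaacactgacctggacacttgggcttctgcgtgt
Sdf2l1 (chr16:17132334-17132633, minus strand): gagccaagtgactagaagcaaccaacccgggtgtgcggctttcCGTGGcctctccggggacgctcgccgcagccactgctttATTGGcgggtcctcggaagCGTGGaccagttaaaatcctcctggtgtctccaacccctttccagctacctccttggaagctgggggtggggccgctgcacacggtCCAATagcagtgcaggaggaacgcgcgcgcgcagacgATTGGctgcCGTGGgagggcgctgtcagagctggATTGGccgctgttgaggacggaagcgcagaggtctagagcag

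Levels between genes were compared as normalised reads per kilobase of merged exon (GENCODE M21, the mean of 8 livers). The disulfide isomerase P4hb was highest at 10597 per kb, followed by Calr at 5856, Hsp90b1 at 4250.3, Hspa5 at 3528 and Herpud1, an ERAD adaptor, at 3493. The transcription factor gene Xbp1 stood at 1909, and the sensors were lower, with 416 for Atf6 and 359 for Ern1. At the low end stood Creld2 at 221 and Derl3 at 39.6, so the set spanned a wide range of levels. Manf is left out of this order, because the annotation's gene and the table's row begin at different places. Hspa5 lies on chromosome 2 (34771970 to 34777547), Hyou1 on chromosome 9 (44379490 to 44392369), Pdia4 on chromosome 6 (47796141 to 47813430), Sdf2l1 on chromosome 16 (17130138 to 17132383) and Calr on chromosome 8 (84841850 to 84846934), all in mm10.

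The genotypes were compared by limma on log2(value + 1) over all genes, with the study's criterion of an unadjusted p under 0.05 and a log2 fold change of at least 0.32 in size. Of all 16650 genes, 130 (0.781%) met it with lower and 219 (1.32%) with higher values in livers labelled L2aKO. At an unadjusted p under 0.05 without a fold limit, 253 genes (1.52%) were lower and 328 (1.97%) higher. All 4 values of livers labelled L2aKO lay below all 4 2afl/fl values in 188 genes (1.13%). With Benjamini-Hochberg adjustment over all genes, limma gave 0 genes with an adjusted p under 0.05, and every gene of the ER set had an adjusted p of at least 0.9997.

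Of the 33 ER genes, 28 had a log2 fold change below 0 and 5 above, and the median was -0.07 (from -0.74 for Derl3 to 0.15 for Herpud1), beside 0.00 and 49.9% below 0 over all genes. An unadjusted p under 0.05 was reached by 8 of 33 (24.2%), all with lower values, namely Hyou1, Pdia4, Pdia3, Sdf2l1, Calr, Dnajc3, Pdia6 and Hsp90b1. Of these only Sdf2l1 met the criterion, and only Hyou1 and Pdia4 had groups without overlap. The 8 genes all belong to the 15 chaperones and disulfide enzymes, and none to the 18 genes of degradation, sensing and translocation, a division noticed after the values were seen. Without the third liver labelled L2aKO the median was -0.12, 11 members had an unadjusted p under 0.05 with lower values, and 4 met the criterion (Calr, Creld2, Hyou1 and Sdf2l1). Over all genes 335 met it in that fit. Leaving out another liver gave 2 (without L2aKO 1), 3 (without L2aKO 2, L2aKO 4 or 2afl/fl 3), 4 (without 2afl/fl 1), 9 (without 2afl/fl 2) or 11 (without 2afl/fl 4) members with an unadjusted p under 0.05 and lower values. The share of all genes lower at that p was not counted in the fits without 1 liver. Since the choice of genes used this contrast, nothing is read from these counts.

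**Figure D1:**
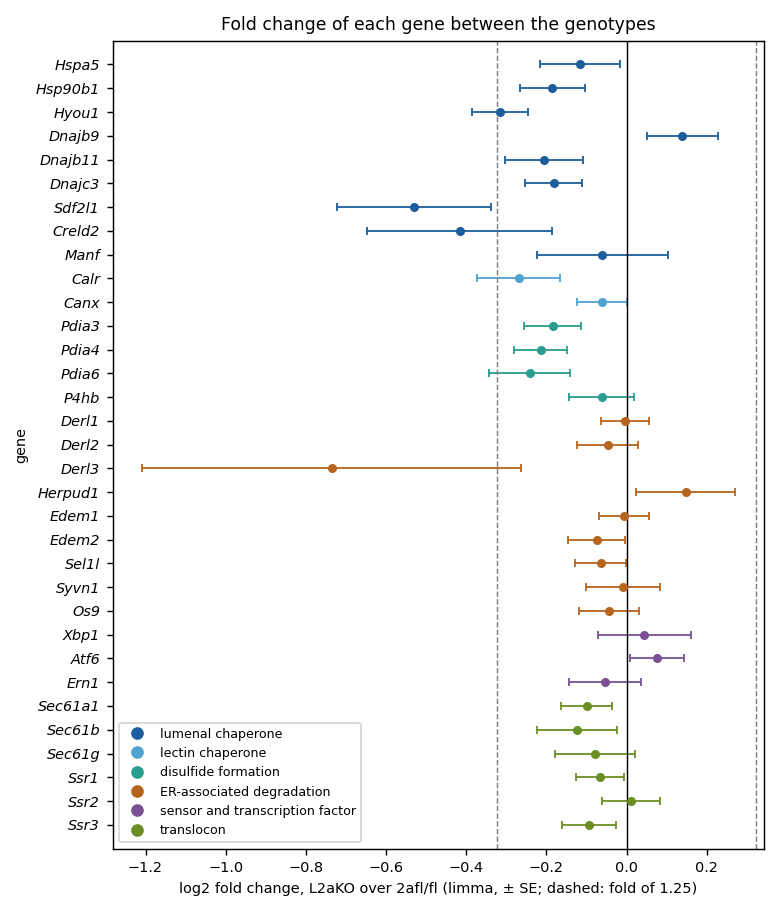
Log2 fold change of each gene, livers labelled L2aKO over 2afl/fl, from limma with its SE (n = 4 per genotype), coloured by role, with dashed lines at the fold the criterion asks for. Of the 33 genes 28 lie left of 0, and Derl3 at -0.74 has by far the widest error.

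Among the lumenal chaperones, 8 of 9 were below 0 (median -0.18) and 4 had an unadjusted p under 0.05. Hyou1, an Hsp70-like protein that exchanges the nucleotide of BiP, had 8158, 8094, 8756 and 7591 normalised reads in livers labelled L2aKO, against 10722, 9622, 10801 and 9429 in 2afl/fl livers. Every liver labelled L2aKO was below every 2afl/fl liver, and the log2 fold change was -0.31 (SE 0.07), or -0.35 without the third liver labelled L2aKO. With 1 liver left out at a time, the Hyou1 value ran from -0.35 to -0.28. Hspa5 encodes BiP itself and had 14383, 13296, 16690.5 and 12893 normalised reads in livers labelled L2aKO, against 18187, 14794, 15478 and 13624 in 2afl/fl livers. The groups overlapped, since the third liver labelled L2aKO was above all 2afl/fl livers but the first, and the log2 fold change was -0.12 (SE 0.10).

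Hsp90b1 encodes GRP94, the Hsp90 of the ER. It had 15121, 15672, 17386 and 15903 normalised reads in livers labelled L2aKO, against 19869, 17721, 19494 and 15931 in 2afl/fl livers, with a log2 fold change of -0.18 (SE 0.08). The lowest 2afl/fl liver, number 4, lay within the range of the livers labelled L2aKO. Dnajc3, a J-domain partner of BiP, had 7851, 7924, 8795 and 7855 in livers labelled L2aKO, against 8875, 8979.7, 10362 and 8616 in 2afl/fl livers, with a log2 fold change of -0.18 (SE 0.07). The third liver labelled L2aKO alone reached into the 2afl/fl range.

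Sdf2l1, a lumenal protein that works with BiP and its J-domain partners, differed more. It had 281, 300.5, 404 and 312 normalised reads in livers labelled L2aKO, against 487, 377, 667 and 381 in 2afl/fl livers. That is 324.6 ± 54.7 against 478 ± 136 (SD, n = 4 each), and the log2 fold change was -0.53 (SE 0.19). The third liver labelled L2aKO again lay among the 2afl/fl values, and without it the change was -0.64. With 1 liver left out at a time, the Sdf2l1 value ran from -0.64 to -0.36. The criterion was met in 4 of the 8 fits that left out 1 liver, and not without L2aKO 1, 2 or 4 or without 2afl/fl 1.

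Creld2, a secreted ER stress protein with disulfide isomerase activity, had 248.5, 207, 331 and 237 normalised reads in livers labelled L2aKO, against 397, 228, 466.5 and 305 in 2afl/fl livers, with a log2 fold change of -0.42 (SE 0.23). The second 2afl/fl liver was as low as the livers labelled L2aKO. Dnajb11, another J-domain partner of BiP, had a difference of -0.21 in log2 units (SE 0.10) and Manf, a secreted ER stress protein, one of -0.06 (SE 0.16). Dnajb9 encodes ERdj4, which brings BiP to IRE1 and holds it inactive, and it was the one lumenal chaperone above 0. It had 1606, 1423, 1569 and 1172 normalised reads in livers labelled L2aKO, against 1309, 1266, 1346 and 1279 in 2afl/fl livers, with a log2 fold change of 0.14 (SE 0.09). Its 2afl/fl livers were close together, and the L2aKO-labelled livers lay on both sides of them.

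**Figure D2:**
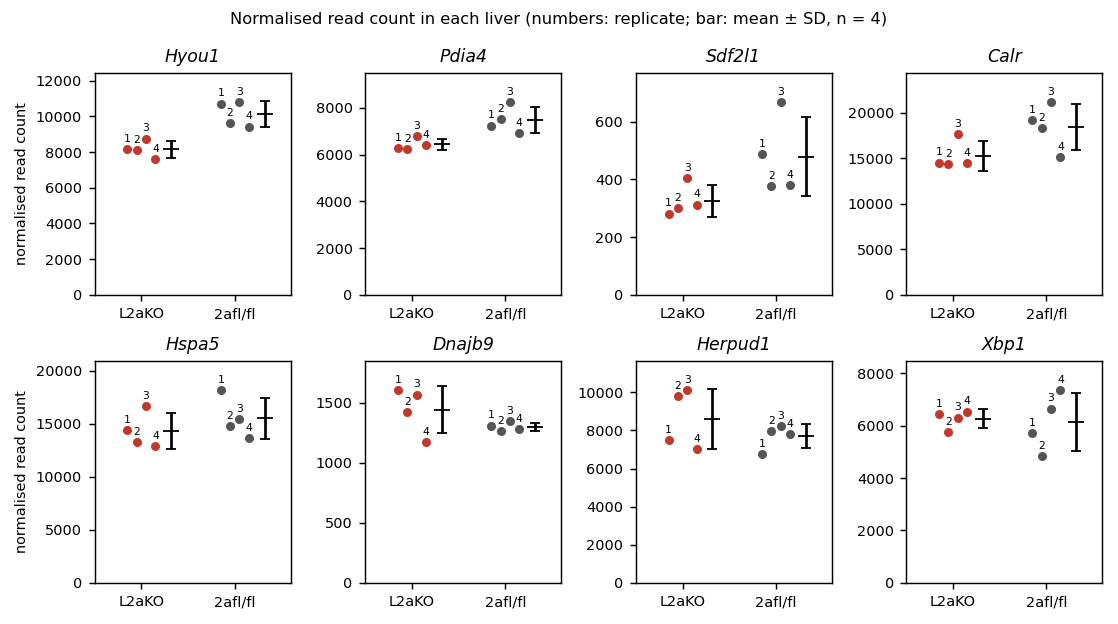
Normalised read count of 8 genes in each liver (vertical axis, from 0), livers labelled L2aKO in red and 2afl/fl in grey, with replicate numbers and the mean ± SD (n = 4). Hyou1 and Pdia4 have no overlap between genotypes, Sdf2l1 and Calr overlap through L2aKO 3 or 2afl/fl 4, and Hspa5, Dnajb9, Herpud1 and Xbp1 overlap widely.

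The lectin chaperones were both below 0. Calr encodes calreticulin, the soluble lectin of the lumen, and had 14533, 14379, 17687 and 14474 normalised reads in livers labelled L2aKO, against 19203, 18348, 21173 and 15125 in 2afl/fl livers. Its log2 fold change was -0.27 (SE 0.10), and without the third liver labelled L2aKO it was -0.34. The fourth 2afl/fl liver lay among the livers labelled L2aKO. Canx, the membrane lectin calnexin, was among the steadiest genes of the set, at 13294 ± 604 in livers labelled L2aKO and 13867 ± 547 in 2afl/fl livers (SD, n = 4 each), which gives -0.06 on the log2 scale (SE 0.06).

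For the disulfide enzymes all 4 counted genes were below 0 (median -0.20), and 3 had an unadjusted p under 0.05. Pdia4 (ERp72) had 6289, 6251, 6799 and 6405 normalised reads in livers labelled L2aKO, against 7245, 7512, 8249.9 and 6909 in 2afl/fl livers. The groups did not overlap, though the third liver labelled L2aKO and the fourth 2afl/fl liver were close, and the log2 fold change was -0.21 (SE 0.07). Pdia3 (ERp57), which works on glycoproteins with calnexin and calreticulin, had 8447, 8586, 9668 and 8869.9 in livers labelled L2aKO, against 10589, 9828, 10792 and 9240 in 2afl/fl livers, with a log2 fold change of -0.18 (SE 0.07). Only the third liver labelled L2aKO exceeded a 2afl/fl liver.

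Pdia6, an isomerase that binds BiP, had 4286, 4903, 5157 and 4363 normalised reads in livers labelled L2aKO, against 6118, 5339, 6198 and 4568 in 2afl/fl livers, with a log2 fold change of -0.24 (SE 0.10). P4hb, the isomerase PDI, averaged 29651 ± 1915 in livers labelled L2aKO and 30983 ± 2677 in 2afl/fl livers (SD, n = 4 each), or -0.06 on the log2 scale (SE 0.08). Both had overlapping groups, and the most abundant isomerase was the one with the smallest difference of the 4. The uncounted Ero1lb, an oxidase that recharges the isomerases, had 3641, 3757, 4929 and 3023 in livers labelled L2aKO, against 4944, 4122, 5209 and 4658 in 2afl/fl livers. Its log2 fold change was -0.3195 (SE 0.14), with an unadjusted p of 0.0464 in limma. It missed the criterion, whose fold limit is 0.322 on the log2 scale.

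The ERAD genes showed small values on average, with 8 of 9 below 0, a median of -0.04 and none with an unadjusted p under 0.05. Herpud1, which gathers the ubiquitin ligase complex, was above 0, with 7494, 9801, 10123 and 7007 normalised reads in livers labelled L2aKO, against 6769, 7968, 8219 and 7811 in 2afl/fl livers. L2aKO-labelled livers 2 and 3 were above all 2afl/fl livers while 1 and 4 lay among them, and the log2 fold change was 0.15 (SE 0.12). Derl3, a derlin of the ERAD channel, had 37.1, 67.2, 81.8 and 39.0 normalised reads in livers labelled L2aKO, against 37.2, 94.7, 170.3 and 104.5 in 2afl/fl livers, with a log2 fold change of -0.74 (SE 0.47). The first 2afl/fl liver was as low as the lowest livers labelled L2aKO.

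Derl3 is known to be high in secretory cells such as plasma cells, so the plasma cell and B cell list was set beside it. Of its 11 measured genes 10 were above 0 (median 0.42), and 1, the B cell gene Ms4a1, met the criterion with higher values, beside 1.32% over all genes. Ms4a1 had 18.6 to 22.9 normalised reads in livers labelled L2aKO and 4.25 to 19.2 in 2afl/fl livers. Apart from Sdc1, no gene of the list was above 50.8 in any liver, so these changes rest on few reads. Jchain ran from 22.3 to 50.8 normalised reads in livers labelled L2aKO and from 22.7 to 44.7 in 2afl/fl livers, and Mzb1 from 5.57 to 10.9 and from 2.27 to 9.58 in the same order of genotypes. The sum over the list, 6256 to 7349.9 in livers labelled L2aKO and 6138 to 7419 in 2afl/fl livers, came almost wholly from Sdc1, which hepatocytes also express. Their part in the Derl3 values was not tested.

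The other ERAD genes had log2 fold changes between -0.07 and 0.00. These were Edem2 (-0.07) and Edem1 (-0.01), which act on the sugars of misfolded chains, Sel1l (-0.06) and Syvn1 (-0.01), the core of the HRD1 ubiquitin ligase, Os9 (-0.04), the lectin that hands chains to it, and the derlins Derl2 (-0.05) and Derl1 (0.00). Each had overlapping groups. Syvn1 carries an ERSE in its promoter, and it averaged 1792 ± 164 normalised reads in livers labelled L2aKO and 1808 ± 228.5 in 2afl/fl livers (SD, n = 4 each).

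Of the sensors and their transcription factor, 1 of 3 was below 0. Xbp1, whose spliced mRNA encodes the factor that raises ERAD and chaperone genes, had 6456, 5745, 6312 and 6541 normalised reads in livers labelled L2aKO, against 5728, 4824, 6650.3 and 7360 in 2afl/fl livers, or 0.04 on the log2 scale (SE 0.12). Its 2afl/fl values spread to both sides of the L2aKO-labelled ones. Atf6 averaged 3937 ± 116 in livers labelled L2aKO and 3743 ± 319 in 2afl/fl livers (log2 fold change 0.08, SE 0.07), and Ern1 2889 ± 411 and 2974 ± 95.7 in the same order (log2 fold change -0.05, SE 0.09), with SD over n = 4 each.

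The translocon genes were 5 of 6 below 0, with a median of -0.09 and none at an unadjusted p under 0.05. The channel subunits Sec61b (-0.12), Sec61a1 (-0.10) and Sec61g (-0.08) and the translocon-associated proteins Ssr3 (-0.09), Ssr1 (-0.07) and Ssr2 (0.01) all had overlapping groups. Ssr3 averaged 8259.9 ± 327 normalised reads in livers labelled L2aKO and 8825 ± 660 in 2afl/fl livers (SD, n = 4 each). In 2afl/fl liver 4 it was 7841, lower than any liver labelled L2aKO.

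**Figure D3:**
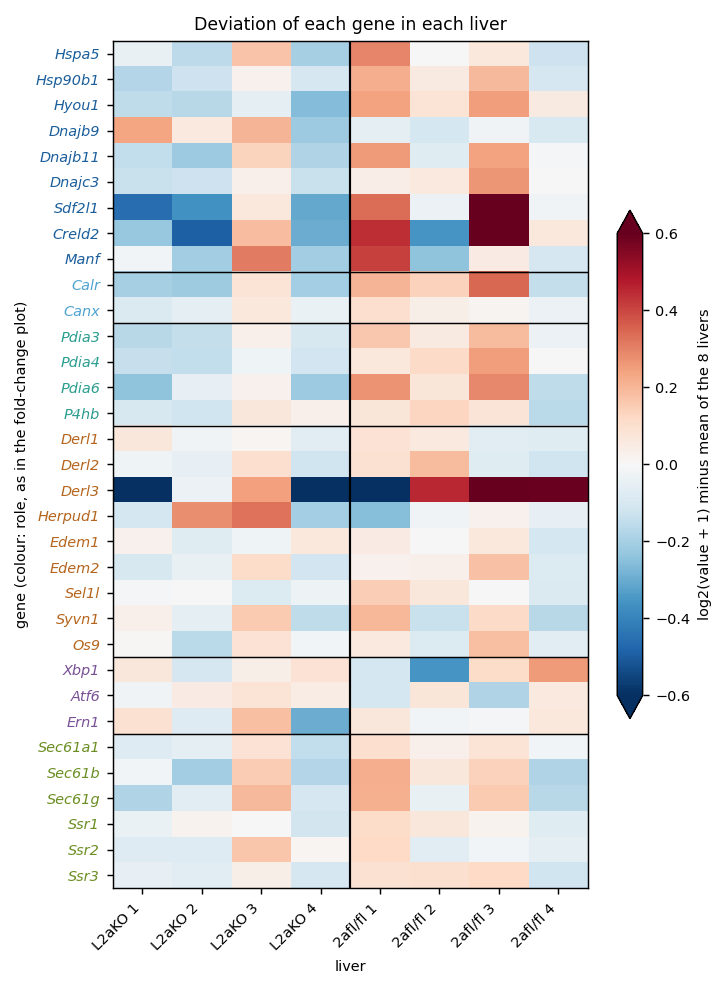
Log2(value + 1) of each gene (rows, names coloured by role) in each liver (columns) minus the gene's mean over the 8 livers, with the livers labelled L2aKO left of the black line and colours capped at ±0.6. Columns L2aKO 3, 2afl/fl 1 and 2afl/fl 3 are mostly red, and L2aKO 1, 2 and 4 and 2afl/fl 4 mostly blue.

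Averaged over the 33 genes, the deviation of a liver from the mean of all 8 was -0.10, -0.10, 0.10 and -0.14 (log2 units) in livers labelled L2aKO 1 to 4, against 0.10, 0.01, 0.18 and -0.04 in 2afl/fl livers 1 to 4. The group means were -0.06 ± 0.11 and 0.06 ± 0.10 (SD, n = 4 each), with no test, since the genes were chosen from this contrast. The order of livers was much the same for many genes. The third liver labelled L2aKO was above the mean in 28 of 33 genes, as was the first 2afl/fl liver, while the fourth 2afl/fl liver was above in 6. The highest value of a gene came from 2afl/fl liver 3 in 13 genes and from 2afl/fl liver 1 in 12. The third liver labelled L2aKO was highest in 4.

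**Figure D4:**
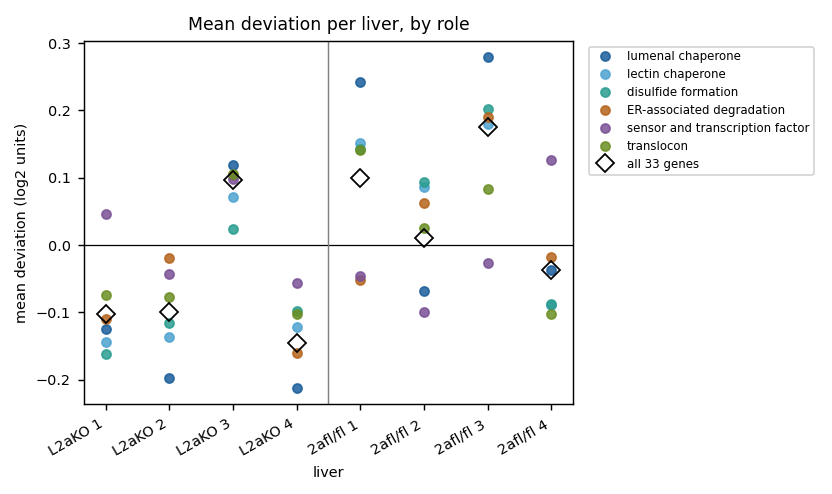
Mean deviation (log2 units) of the genes of each role in each liver, with open diamonds for all 33 genes and livers labelled L2aKO left of the grey line. The diamonds run from -0.14 (L2aKO 4) to 0.18 (2afl/fl 3), and L2aKO 3 at 0.10 lies beside 2afl/fl 1.

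How the genes vary among livers of a genotype is a measure other than the genotype difference. It comes from the same livers whose results were known when the genes were chosen, so it is not independent of that choice. With the genotype means removed, the median Pearson correlation over the 528 pairs of the 33 genes was 0.50 and 83.7% of pairs were positive. This is a description over 8 livers, and all genes of a liver share its library, depth and scaling. Over all pairs of the 11007 genes with a mean value at or above that of the lowest member, the median was 0.00 and 49.9% were positive. These genes were not matched to the set in level, and most members stand well above Derl3, the lowest. Shared variation was highest within the lumenal chaperones (median r 0.71, 36 of 36 pairs positive), the disulfide enzymes (0.73) and the translocon (0.74, 15 of 15 pairs positive). It was lower within ERAD (0.25) and near 0 among the 3 genes Xbp1, Atf6 and Ern1 (0.01). Without the third liver labelled L2aKO the median over all pairs of the set was 0.44.

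Of the 10 closest pairs 9 joined different roles. Hyou1 and Syvn1 had r = 0.97, as had Hsp90b1 and Pdia3. Within the lumenal chaperones, Dnajb11 with Creld2 and Hspa5 with Manf were closest, both at 0.93. The closest partner of Ern1 was Dnajb9 (0.92). Pdia3 had the highest median with the other members (0.79). Atf6 ran the other way, with a median r of -0.41 with the other members, and Xbp1 had -0.14 and its lowest value with Derl2 (-0.81). Derl3 had a median of only 0.10, and its closest partner was Herpud1 (0.81). Residual SD on the log2 scale was largest in Derl3 (0.75), Creld2 (0.38) and Sdf2l1 (0.32), and smallest in Canx (0.06).

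Genes outside the set were ranked by their correlation with the mean residual of the 33, over 8 livers and 10556 genes with a mean of at least 100. The 10 highest were Hars (0.997), Arhgap39 (0.987), Pygo2 (0.968), Hmox1 (0.962), Rab11fip3 (0.956), Rbpms2 (0.953), Uggt1 (0.953), Krtcap2 (0.951), Pik3r2 (0.95) and Ssr4 (0.941). Uggt1, the glucosyltransferase that marks misfolded glycoproteins, and Ssr4, a translocon-associated protein, are ER genes. Of the 100 genes of the other ER lists that were searched, 69 had r above 0 and 31 below, with a median of 0.34, and the lowest was Erlin2, an ERAD gene, at -0.92. The 5 lowest of all genes were Ebag9 (-0.963), Gorab (-0.957), Slc35a1 (-0.957), Eda (-0.955) and Abi1 (-0.95). With 8 livers and so many genes searched, such values are a description.

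The members with an exact ERSE can be set beside those without one and those with no promoter in the table. All 9 had a log2 fold change below 0 (median -0.19), 4 with an unadjusted p under 0.05, and their median pair correlation was 0.69. The 18 members whose promoter in the table has no ERSE had a median of -0.07, with 15 below 0 and 3 at an unadjusted p under 0.05, and a median pair correlation of 0.43. The 6 with no promoter in the table, Hyou1 among them, had a median of -0.03, with 4 below 0 and 1 at an unadjusted p under 0.05, and a median pair correlation of 0.38. Values within the ERSE group ran from -0.74 (Derl3) to -0.01 (Syvn1), and Sdf2l1 and Pdia4 stood in the group without one. Over all genes 49.9% were below 0 and 1.52% were lower at an unadjusted p under 0.05. The difference between the groups was not tested, and the groups also differ in role. The genes were chosen from this genotype contrast, so nothing is read from these fold changes and counts.

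Further genes of the same pathway were taken from lists written by function, also with earlier results of these livers known. Of 106 measured, 68 (64.2%) were below 0 with a median of -0.02, and limma gave 0 past the criterion. At an unadjusted p under 0.05, 1 was lower (0.943%) and 2 were higher, beside 1.52% lower and 1.97% higher over all genes, so the count did not exceed the background. Rcn1, a calcium-binding protein of the lumen, had 320 ± 18.3 normalised reads in livers labelled L2aKO and 274 ± 4.47 in 2afl/fl livers (log2 fold change 0.22, SE 0.08), without overlap. Creld1, a relative of Creld2, had 871 ± 38.6 and 967 ± 26.7 in the same order (-0.15, SE 0.06), also without overlap. Creb3l2, a membrane-bound transcription factor like ATF6, differed by 0.26 in log2 units (SE 0.10), and Creb3l3, its liver relative, had -0.13 (SE 0.06). By list, 24 of 39 folding genes, 17 of 27 ERAD genes, 22 of 31 translocation and glycosylation genes and 5 of 9 sensors and factors were below 0. The median pair correlation of residuals was 0.10 over the 106 genes, 0.28 within translocation and glycosylation and within sensors and factors, 0.09 within folding and -0.06 within ERAD.

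Neighbouring stress pathways were counted in the same way. Of 31 genes of the integrated stress response, the arm that runs through translation control and ATF4, 18 were below 0, the median was 0.00 and limma gave 0 with an unadjusted p under 0.05. Atf4 itself ran from 1743 to 2191 normalised reads in livers labelled L2aKO and from 1623 to 2109 in 2afl/fl livers, and Ddit3 (CHOP) from 84.5 to 127 and from 93.6 to 126 in the same order. Of 22 cytosolic heat shock genes 13 were below 0. An unadjusted p under 0.05 with lower values was reached by 3 (13.6%, beside 1.52% over all genes). These were Hsp90aa1 (-0.23), Hspa4l (-0.20) and Dnaja4 (-0.36), the last of which met the criterion. Of 31 proteasome genes 20 were below 0 with a median of -0.01 and none at an unadjusted p under 0.05. The proteasome genes shared their residuals at least as much as the ER set, with a median pair correlation of 0.56, against 0.29 in the integrated stress response and 0.22 in the heat shock list.

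Cell type markers and states were counted in the same way. At the criterion single genes of some lists were called, beside 0.781% lower and 1.32% higher over all genes, and none had an adjusted p under 0.05 in limma. Hepatocyte markers, 12 of 12 measured, summed to 3108650 to 3461067 in livers labelled L2aKO and 2944480 to 3227491 in 2afl/fl livers, with 8 of 12 above 0 and Pck1 past the criterion. All 9 Kupffer cell and all 10 recruited macrophage markers were above 0, with Lgals3 past the criterion, as were 7 of 8 stellate cell genes with Col1a1 past it, 7 of 8 endothelial genes and 4 of 7 bile duct genes. Summed levels were 7530.1 to 8977 against 6529 to 8295 for Kupffer cells and 1563 to 1948 against 1376 to 1615 for recruited macrophages, each with livers labelled L2aKO first. Most of the recruited macrophage sum came from Cd9 and Spp1, and Spp1 is also on the bile duct list. Spp1 had 625 to 759 normalised reads in livers labelled L2aKO and 583 to 799 in 2afl/fl livers. Of 9 exocrine pancreas genes 7 are not listed in the table. Of 14 fasting and feeding genes Pck1 and Angptl4 met the criterion with higher and G6pc with lower values, and of 12 clock genes none had an unadjusted p under 0.05 in limma. The part of any of these in the ER genes was not tested.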

How the data were processed

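RNA of 8 livers was sequenced and, per the paper, processed by the authors in Partek Flow version 10, with reads mapped to mm10 by STAR 2.7.8a and DESeq2 for differential expression. The values the authors deposited are a normalised signal, reads per gene divided by a library's DESeq2 size factor, called normalised reads. The annotation and quantification settings are not given in the sources used here. Of values under 100 reads, 88.6 to 89.2% were whole multiples of 1 read within 0.02, so whole reads were not recovered and tests for counts were not used. Depth per library was worked back from the step that 1 read makes and was 27.5 to 37.2M reads.

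All 16650 genes (mean of at least 1) were tested with limma 3.58.1 in R 4.3.3 (lmFit, eBayes with trend and robust) on log2(value + 1), two-sided and without covariates, with Benjamini-Hochberg adjustment. A fold change on this scale understates the change of low genes. The steps were tested on simulated data. Genes were found by symbol, 33 of 34. Exon lengths and positions came from GENCODE M21 and promoters from RefSeq (GRCm38.p6).

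The members, the lists and the tests were chosen with earlier results of these data known. Named were all members, the 4 genes of smallest p on the other ER lists, the 10 genes most and 5 least like the set (mean of at least 100), Mfsd2a, and list genes that a result turns on. Where nothing states separate litters or days, p-values measure the spread between these 4 livers per genotype. Alternatives changed the pseudocount, filter, scaling, eBayes settings, library weights, fold limit and replicate block, or left out 1 library at a time.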

Additional observations from a re-analysis of the deposited data

Results flagged for a closer look

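Of 66 groups of 4 livers tested (each of the 33 genes in each genotype), 3 had 1 liver far from the other 3, where the gap over the range passed Dixon's 95% critical value. Chance flags about 1 in 20 groups. Dnajc3 was at 8795 normalised reads in the third liver labelled L2aKO, with the other L2aKO-labelled livers at 7851 to 7924 (gap over range 0.922). Calr was at 17687 in that same liver, with the others at 14379 to 14533 (0.954). Ssr3 was at 7841 in the fourth 2afl/fl liver, with the other 2afl/fl livers at 9094 to 9263 (0.881).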

How the results depend on the processing

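The count of ER genes past the criterion was 1 (Sdf2l1) under both other pseudocounts, a filter mean of at least 10, and TMM and quantile scaling. The same held with eBayes without trend and robust, and with arrayWeights. A run with no filter was the main fit again, since all 16650 genes had a mean of at least 1. The count was 8 with no fold limit, 0 at a fold of at least 1.5, and 0 to 4 when 1 library was left out. It was 0 without L2aKO 1, 2 or 4, 3 without 2afl/fl 2, and 4 without L2aKO 3 or without 2afl/fl 4. Without 2afl/fl 1 it was 1, but the gene was Derl3. Of the other ER genes the criterion was met by 0, by 3 with no fold limit, and by 0 to 1 without 1 library (Creb3l2 without L2aKO 4). The median log2 fold change of the set was -0.12 (without L2aKO 3 or 2afl/fl 4) to -0.04 (without 2afl/fl 1), and the median pair correlation 0.442 to 0.572, when 1 library was left out. Members lower at an unadjusted p under 0.05 numbered 8, but 4 with eBayes without trend and robust, 9 with arrayWeights, 11 with the replicate block, and 2 to 11 without 1 library. The median of the set stayed below 0 in every alternative run, while medians by role or list were not recomputed. Of 33 members 24 kept their sign in all 8 fits without 1 library, and the other 9 (Manf, Derl1, Derl2, Edem1, Syvn1, Os9, Xbp1, Ern1 and Ssr2) did not. The number of all genes lower at that p was counted in the main fit only. Over all genes the criterion was met by 349, by 229 with a mean of at least 10 and by 470 with eBayes without trend and robust. It was met by 299 (without 2afl/fl 3) to 427 (without 2afl/fl 4) when 1 library was left out. The cause was not tested.

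Residuals of same-numbered livers correlated at 0.04, -0.21, 0.05 and 0.13, and those of differently numbered livers at -0.196 to 0.216. These few correlations cannot show whether the replicate numbers stand for a shared litter, day or batch, and the sources used here do not state it. Some clock genes followed the replicate number in both genotypes. Npas2 had 229, 114, 103 and 65.0 normalised reads in livers labelled L2aKO 1 to 4. In 2afl/fl livers 1 to 4 it had 360, 126, 117 and 75.8. Arntl was also highest in liver 1 and lowest in liver 4 of each genotype. These were singled out after their values were seen, and Per2, for one, had no such order. The cause was not tested. With the replicate number as a block, 359 genes and 3 members (Creld2, Derl3 and Sdf2l1) met the criterion.

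Depth was at least 27.5M reads in each library, and the number of livers (4 per genotype) limits the precision, with Derl3 (37.1 to 170.3 normalised reads) the least precise member.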
